A study of Mus musculus with 10 samples.

Results

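Gene expression under VSG22 was set against gene expression under dexamethasone (Dex) in the mouse macrophage line RAW264.7 on the 2 arrays of each group. The comparison covered the array's non-control probes that were well above background on both VSG22 arrays, which were 21826 of 55681 probes. At 1 probe a gene these gave 16949 of the 18049 genes fitted, and 16942 of them had values for the comparison. The choice is one-sided: a gene measured with Dex but too dim with VSG22 is left out, while a gene measured with VSG22 alone stays in.

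The series holds 10 single-colour arrays in 5 groups of 2, and the groups compared here are VSG22, Dex and EtoH, the solvent. The other groups, labelled FF and VSGC12, were given a glucocorticoid at the same dose and times as VSG22 and Dex. Their arrays enter the fit, so each SE and p-value pools the spread within all 5 groups. VSG22 and Dex were each given at 100 nM, 1 hour before LPS (lipopolysaccharide, from the outer membrane of Gram-negative bacteria) was added at 1 µg/ml to start an inflammatory response, which ran for 16 hours. The labels do not say whether EtoH cells were given LPS, and no group is described as unstimulated. They call VSG22 a glucocorticoid and give it by that code alone, so its structure is not described, and this is 1 pair of compounds compared at 1 matched dose and time in 1 cell line. Nothing says that the replicates were separate cultures, so the p-values measure only the spread between these samples, which may be technical.

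Each array held 62976 spots, of which 59305 were not controls; 40.1% to 44.4% of those were well above background and 0 were saturated. Of the 23 macrophage identity genes listed, 22 were on the array, and all 22 were detected with VSG22, with Dex and with EtoH. Of markers of other cells, 0 of 8 epithelial, 1 of 6 endothelial, 1 of 7 B cell, 4 of 8 T cell and 4 of 11 neutrophil and mast cell genes on the array were detected with VSG22 and with Dex alike, and 2 of 8 fibroblast genes with VSG22 against 1 with Dex. The Dex arrays stand apart. Their difference between replicates had an SD of 0.59 over the member genes, against 0.28 for the VSG22 arrays, and 4.11% and 5.69% of Dex probes lay in patches of stray local signal, against 0.52% and 0.44% on the VSG22 arrays. On Dex replicate 2, 997 member genes were at least 2-fold above Dex replicate 1 and 131 were at least 2-fold below it; between the VSG22 replicates these counts were 152 and 46. The summed level of the T cell markers was 60.2 and 55.6 with VSG22 against 59.0 and 131 with Dex, and that of the neutrophil and mast cell markers was 71.3 and 84.8 against 81.8 and 165, in units of the array's 75th percentile, so both sums were high on Dex replicate 2 alone. Cd4, a T cell coreceptor, had 5.38 and 5.22 with VSG22 against 5.31 and 6.80 with Dex, and Elane, neutrophil elastase, had 5.24 and 5.56 against 5.49 and 7.09. The part of these markers in the results below was not tested.

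Glucocorticoids enter the cell and bind the glucocorticoid receptor (Nr3c1), which moves to the nucleus. There it activates genes that carry its binding sites and represses inflammatory genes driven by NF-kB, AP-1 and interferon regulatory factors. In macrophages these drugs are known for lowering the output of cytokines, chemokines and interferon-induced genes after LPS and for raising anti-inflammatory genes.

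Most genes lay close together under VSG22 and Dex. Mitosis genes lay higher with VSG22 as a list, and a few interferon-induced genes, 1 chemokine and 2 cytokine genes were called lower. Levels below are log2 processed signal minus the array's 75th percentile, so a level of 0 is that percentile, and differences are VSG22 minus Dex on the log2 scale. The median difference over member genes was 0.03 and its quartiles were -0.13 and 0.17; 13086 genes lay within 1.25-fold, 244 were at least 2-fold higher and 510 at least 2-fold lower with VSG22. A typical gene's 95% interval reached 0.30 on either side of its difference, or 1.23-fold. With limma's test, 56 genes (0.331%) had an adjusted p below 0.05, the threshold for a call: 35 (0.207%) were higher with VSG22 and 21 (0.124%) lower. At an unadjusted p below 0.05 the counts were 1459 higher (8.61%) and 1353 lower (7.99%).

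The 56 calls are at the edge of what 2 arrays a group resolve. Their adjusted p-values ran from 0.0094 to 0.0495, and they rest on adjusting over the whole fitted table, where 44 genes outside the members were called lower. Adjusted over the members alone, 0 genes passed, with lowest adjusted p of 0.053, while 2812 (16.6%) had an unadjusted p below 0.05. With the VSG22 and Dex arrays fitted alone 0 genes passed, and leaving out 1 array at a time gave from 2 calls (without either EtoH replicate) to 1246 (without Dex replicate 1), with 261 without Dex replicate 2. The share called higher, 62.5% here, was 41.0% of 156 calls with array medians subtracted and 48.2% of 85 calls with normexp background. It was 23.9% of the 1246 calls without Dex replicate 1. No gene was called lower in the 16 calls without probes in patches, the 45 without VSG22 replicate 1 or the 25 without VSG22 replicate 2, so the interferon, chemokine and cytokine calls given below were lost in each of these settings. None of the 56 had opposite signs on the slides that carry replicates 1 and 2. A call nearly requires this, so it is no check on the calls. Of the 56, 48 were well above background on all 4 arrays. A probe in a patch on the Dex arrays was found for 9 of the 56, against 1537 of the 16942 member genes. Of these 9, Mastl was called higher and the others lower.

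**Figure D1:**
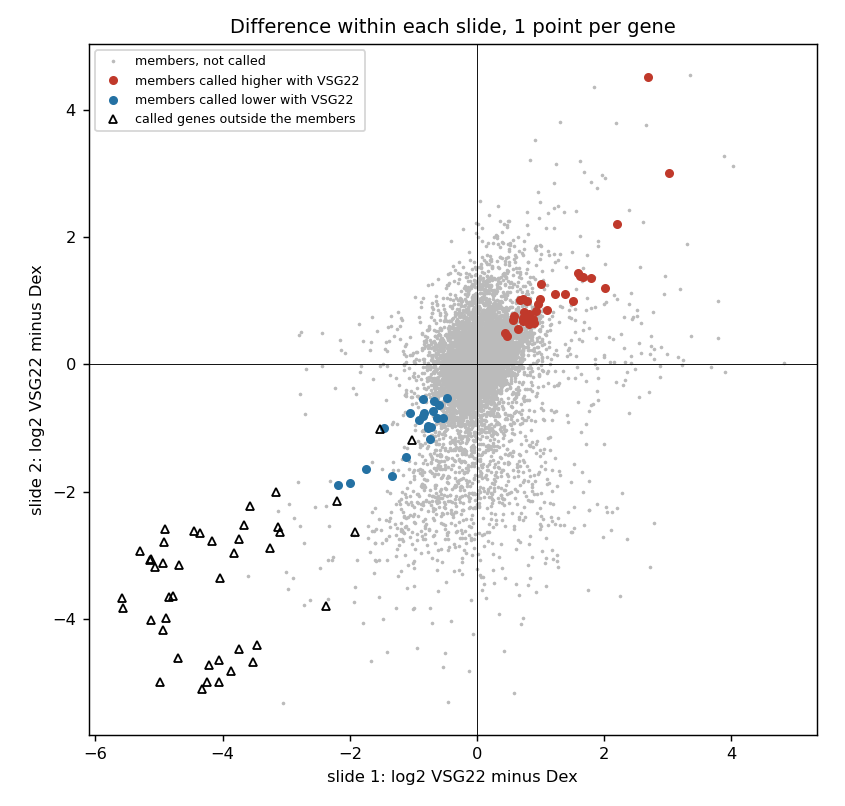
Each point is 1 gene; the axes give the log2 difference VSG22 minus Dex on slide 1 and on slide 2, with the 35 member genes called higher in red, the 21 called lower in blue and the 44 called genes outside the members as open triangles. The called members lie where both slides have the same sign, as a call nearly requires. The triangles sit far to the lower left, where the Dex arrays were brighter on both slides.

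Hp and Serpina3g were among the genes called highest that were measured on all 4 arrays. Hp encodes haptoglobin, the plasma protein that captures free haemoglobin, and is induced by glucocorticoids; its probe lies at chr8:112099045-112099104 (mm9). Its level was 3.06 and 2.83 with VSG22, 1.68 and 1.73 with Dex, and -2.48 and -2.40 with EtoH. Both compounds stood far above EtoH and the VSG22 arrays stood above the Dex arrays without overlap, a difference of 1.24 ± 0.11 (SE, n = 2 each; 2.36-fold; limma adjusted p = 0.0145). Serpina3g, a serine protease inhibitor, had levels of 0.43 and 0.17 with VSG22 and -1.37 and -1.19 with Dex, a difference of 1.58 ± 0.17 (2.99-fold; limma adjusted p = 0.0225). Its EtoH signal was not distinguished from background, which makes VSG22 at least 14.4-fold and Dex at least 4.84-fold higher than EtoH; such a bound sets the mean against the dimmest signal still detected on each EtoH array. In both genes the VSG22 and Dex arrays did not overlap, which the naming rule requires.

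Some of the other genes called higher did not share that course against EtoH, and some did. Cep295, a centriole protein, had levels of 1.56 and 1.29 with VSG22, -0.45 and 0.08 with Dex, and 1.16 and 0.96 with EtoH, so Dex was the group that stood low; its difference of 1.61 ± 0.22 was the largest positive one among named genes (3.06-fold; limma adjusted p = 0.0378), and it was 2.02 on slide 1 and 1.21 on slide 2. Gm1976 followed the same order at 0.24 and 0.28 with VSG22, -0.98 and -0.83 with Dex and -0.09 and 0.03 with EtoH. 2700099C18Rik, whose probe at chr17:95160893-95161809 (mm9) is near that of Gm1976 at chr17:95214328-95214387, was 2.02-fold higher with VSG22 than with Dex, with EtoH lowest. Zfp101, a zinc finger gene, was 2.19-fold higher with VSG22 than with Dex, at -1.76 and -1.81 against -2.77 and -3.07, and EtoH overlapped Dex at -2.83 and -2.75. Cfap69, a gene of cilia and flagella, was 1.85-fold higher with VSG22 than with Dex. Its EtoH signal was not well above background, so VSG22 was at least 4.09-fold and Dex at least 2.21-fold higher than EtoH. Pla2g7, the enzyme that breaks down platelet-activating factor, was not well above background on either Dex array, so VSG22 was at least 1.35-fold higher (limma adjusted p = 0.0441). The highest fitted value among the called genes, 12.1-fold, belongs to an array entry without a gene symbol. It was not well above background on either Dex array, so only a bound of at least 3.18-fold holds.

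**Figure D2:**
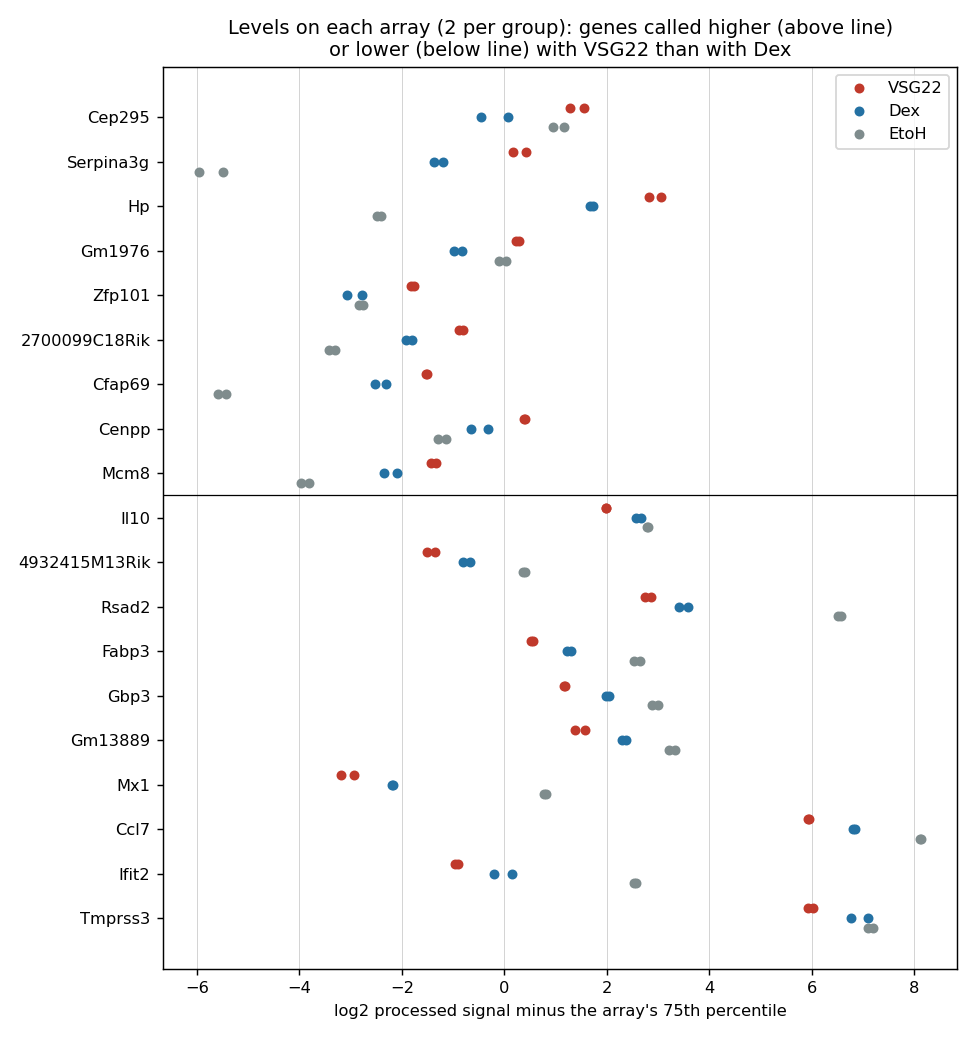
Levels on each array (log2 processed signal minus the array's 75th percentile) of genes called highest and lowest with VSG22 against Dex by the naming rule; each point is 1 array. In each gene both red VSG22 points lie on one side of both blue Dex points, which the naming rule requires. The place of the grey EtoH points varies: they lie between VSG22 and Dex for Cep295 (1.16 and 0.96) and above both for Ccl7 (8.14 and 8.12).

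Genes of mitosis and cytokinesis lay above Dex as a block. The gene lists, this one included, were chosen with earlier results of these data known, so their shares are descriptive. All 29 members of the list had both VSG22 arrays above both Dex arrays, where 28.6% of member genes did, and 27 of 29 had an unadjusted p below 0.05 in that direction, where 8.61% did. The median difference was 0.57, against 0.03 over all members, and it was 0.61 on slide 1 and 0.58 on slide 2. Of the 29, 2 passed the adjusted test, Ccnb2 and Ube2c, and 0 were called lower. All 29 were also well above background on both Dex arrays, and over the 25 whose probe lay outside the Dex patches the median was 0.56. Without Dex replicate 1 the list's median was 0.61, and without Dex replicate 2 it was 0.57. These cultures were measured in bulk, so more dividing cells and more of these RNAs per dividing cell cannot be told apart.

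Ccnb2, or cyclin B2, the partner of Cdk1 that drives entry into mitosis, had levels of 3.101 and 2.96 with VSG22, 2.29 and 2.16 with Dex, and 0.22 and 0.15 with EtoH. The VSG22 arrays were highest and the EtoH arrays lowest, with no overlap, and VSG22 was 1.75-fold higher than Dex (0.80 ± 0.09, SE, n = 2 each; limma adjusted p = 0.0251). Ube2c, the enzyme that hands ubiquitin to the anaphase-promoting complex, had levels of 2.56 and 2.47 with VSG22, 1.76 and 1.75 with Dex, and 0.19 and 0.01 with EtoH, 1.69-fold higher with VSG22 than with Dex (0.75 ± 0.10; limma adjusted p = 0.0378). Ccna2, or cyclin A2, stood in the same order at 1.68 and 1.45, 0.74 and 0.77, and -3.61 and -3.23, with a difference of 0.82 ± 0.19 that missed the threshold (limma adjusted p = 0.117; 95% interval 0.37 to 1.27). Mki67, the proliferation marker Ki-67, had levels of 3.34 and 3.32 with VSG22 against 2.83 and 2.71 with Dex (difference 0.56, limma adjusted p = 0.0886). The list ran from Cdk1, the mitotic kinase, at 0.27, to Kif11, the spindle motor, at 1.33; the probe of Kif11 lies in a Dex patch.

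Against EtoH, the list's median level was 2.46 and 2.37 higher on the VSG22 arrays and 1.86 and 1.79 higher on the Dex arrays; both comparisons share the EtoH arrays. DNA replication genes were ordered in the same way at a smaller size: their median stood 1.60 and 1.55 above EtoH with VSG22 and 1.21 and 1.252 with Dex. Of the 32 replication genes, 26 had both VSG22 arrays above both Dex arrays (81.2%, against 28.6% of all members). Both VSG22 arrays lay below in 2 (6.25%, against 22.3%). An unadjusted p below 0.05 was reached upward by 21 (65.6%, against 8.61%) and downward by 1 (3.12%, against 7.99%). In the adjusted test 0 passed, and the median difference was 0.38. Cdc6, which loads the replicative helicase, had the largest positive difference at 0.70 (limma adjusted p = 0.133), and Rrm1, a subunit of ribonucleotide reductase, had 0.65 (limma adjusted p = 0.0592). Tyms, thymidylate synthase, went the other way at 1.98 and 2.08 with VSG22 against 3.11 and 4.63 with Dex, where the Dex arrays themselves were far apart (limma adjusted p = 0.123). Cdt1, the licensing factor with the highest level of the list, differed by -0.13 with a 95% interval of -0.39 to 0.13.

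Several called genes outside the lists also serve cell division or DNA repair; they are named here after their values were seen. Kif18a, a kinetochore motor, was 1.63-fold higher with VSG22; Ska1, which holds kinetochores to microtubules, 1.72-fold; Sgo1, the guardian of centromeric cohesion, 1.39-fold; Asf1b, a histone chaperone, 1.52-fold; and Fanci, of the Fanconi anaemia pathway, 1.68-fold. By the naming rule, Cenpp, a centromere protein, was 1.83-fold higher at 0.40 and 0.39 with VSG22, -0.32 and -0.64 with Dex and -1.13 and -1.30 with EtoH. Mcm8, a helicase of recombination repair, was 1.79-fold higher and was below background with EtoH.

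**Figure D3:**
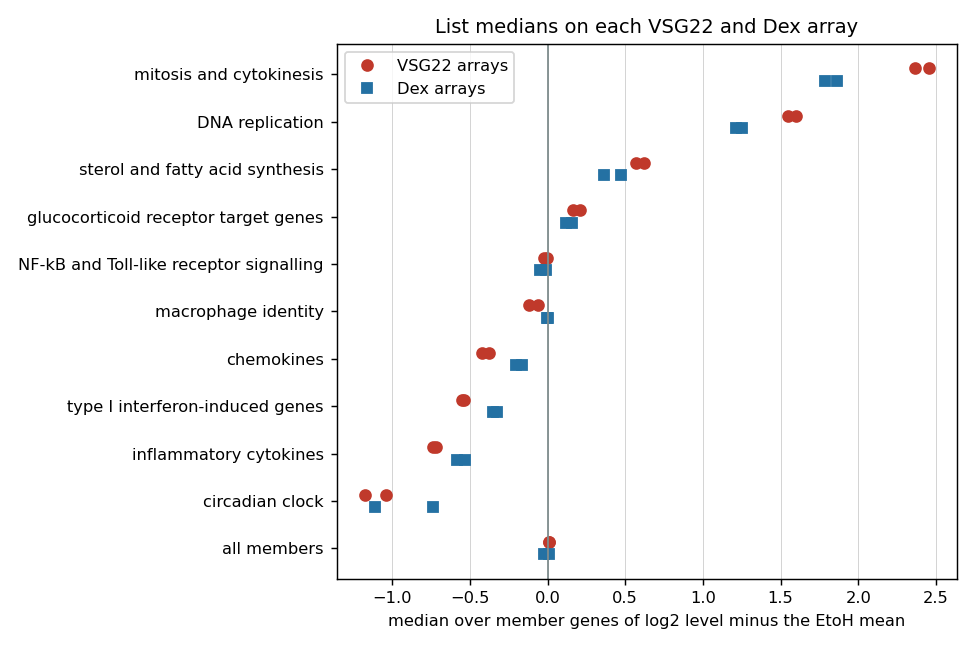
Median over each list's member genes of the log2 level minus the EtoH mean, for each VSG22 array (circles) and each Dex array (squares); the vertical line at 0 is the EtoH mean. For mitosis and cytokinesis the circles lie at 2.46 and 2.37 and the squares at 1.86 and 1.79, while for type I interferon-induced genes the circles lie at -0.55 and -0.54 and the squares at -0.35 and -0.32.

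The promoters of the called mitosis genes are shown because promoters of this class are known for CCAAT boxes, bound by NF-Y, and for the cell cycle genes homology region (CHR). They are the 250 bases before the RefSeq start on GRCm38.p6, written 5′ to 3′ on the gene's strand, with matches in capitals: CCAAT or its reverse complement ATTGG, and TTTGAA or TTCGAA with their reverse complements for the CHR. The Ccnb2 promoter is chr9:70421555-70421804 on the minus strand and the Ube2c promoter is chr2:164769679-164769928 on the plus strand, where CCAAT and ATTGG overlap at 1 place.
Ccnb2: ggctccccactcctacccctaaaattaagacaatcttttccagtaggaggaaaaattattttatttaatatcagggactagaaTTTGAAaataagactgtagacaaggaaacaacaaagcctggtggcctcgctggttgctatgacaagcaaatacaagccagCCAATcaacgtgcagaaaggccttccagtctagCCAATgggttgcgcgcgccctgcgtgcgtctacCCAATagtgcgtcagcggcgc
Ube2c: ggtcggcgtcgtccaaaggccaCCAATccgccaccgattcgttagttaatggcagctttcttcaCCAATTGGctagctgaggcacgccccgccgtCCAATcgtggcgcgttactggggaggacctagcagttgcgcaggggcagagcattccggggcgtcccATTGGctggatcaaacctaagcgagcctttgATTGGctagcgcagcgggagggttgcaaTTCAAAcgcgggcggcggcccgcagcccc
The Ccnb2 window holds 3 CCAAT matches and 1 CHR match, and the Ube2c window holds 6 and 1. Among the 24 mitosis list members with a RefSeq promoter, 21 (87.5%) held a CCAAT match and 9 (37.5%) a CHR match, where 34.5% and 17.4% of 27025 mouse promoters did. Of 25 replication genes, 18 (72.0%) held a CCAAT match and 5 (20.0%) a CHR match. A CHR match was also in 9 of 30 (30.0%) promoters of the interferon-induced list. Of the 35 genes called higher 19 had a promoter, and 10 (52.6%) held a CCAAT match. A match is a run of letters in this window and not a measured binding site.

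Interferon-induced genes lay below Dex. Of the 37 members of the list, 27 had both VSG22 arrays below both Dex arrays, where 22.3% of member genes did, and 0 had both above. The median difference was -0.26, and it was -0.26 on slide 1 and -0.19 on slide 2. The adjusted test called 4 lower (Ifit2, Mx1, Gbp3 and Rsad2) and 0 higher. An unadjusted p below 0.05 was reached downward by 14 (37.8%, against 7.99% of all members) and upward by 0 (against 8.61%). Outside the Dex patches, 23 of 32 members had both VSG22 arrays below. Without Dex replicate 1 the median was -0.19, and without Dex replicate 2 it was -0.30.

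Ifit2, an antiviral protein that binds foreign RNA, had levels of -0.91 and -0.96 with VSG22, 0.15 and -0.20 with Dex, and 2.56 and 2.54 with EtoH. VSG22 was thus farthest below EtoH, and its arrays did not overlap those of Dex (difference -0.91 ± 0.12, SE, n = 2 each; limma adjusted p = 0.034). Rsad2, or viperin, which makes a chain-ending nucleotide against viruses, had levels of 2.74 and 2.86 with VSG22, 3.59 and 3.41 with Dex, and 6.51 and 6.58 with EtoH (difference -0.70 ± 0.09; limma adjusted p = 0.0378). Mx1, a dynamin-like antiviral GTPase, had -2.94 and -3.19 with VSG22, -2.17 and -2.19 with Dex and 0.81 and 0.78 with EtoH (difference -0.89 ± 0.12; limma adjusted p = 0.0415). Gbp3, a guanylate-binding protein, had 1.18 and 1.17 with VSG22, 2.04 and 1.98 with Dex and 2.89 and 3.01 with EtoH (difference -0.83 ± 0.11; limma adjusted p = 0.0363). The order was the same in these genes, EtoH highest and VSG22 lowest.

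Several members of the list lay close together. Isg15, a ubiquitin-like modifier, had levels of 8.58 and 8.40 with VSG22 against 8.56 and 8.44 with Dex, and its difference was -0.01 with an SE of 0.12. Oas1a, a sensor of double-stranded RNA, had 8.71 and 8.65 against 8.72 and 8.84, without overlap but with a 95% interval of -0.30 to 0.11. Irf1, a transcription factor of the interferon pathway, differed by -0.03, and its arrays overlapped. Ifit3, next to Ifit2 in function, had a difference of -1.10 that was not called (limma adjusted p = 0.056), and its probe lies in a Dex patch; the like gene Ifit3b, chosen after its value was seen, was called lower at 2.34-fold, also in a patch. Probes of close relatives such as these, the guanylate-binding proteins and the Serpina3 cluster may share signal, which was not tested.

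The promoters of Gbp3 and Rsad2 are shown for the interferon-stimulated response element (ISRE), the site of interferon regulatory factors, searched as GAAANNGAAA on both strands. They are chr3:142559794-142560043 on the plus strand and chr12:26456453-26456702 on the minus strand of GRCm38.p6, from RefSeq as above, with matches in capitals; both lie here as the reverse complement, and the pair in Gbp3 overlaps.
Gbp3: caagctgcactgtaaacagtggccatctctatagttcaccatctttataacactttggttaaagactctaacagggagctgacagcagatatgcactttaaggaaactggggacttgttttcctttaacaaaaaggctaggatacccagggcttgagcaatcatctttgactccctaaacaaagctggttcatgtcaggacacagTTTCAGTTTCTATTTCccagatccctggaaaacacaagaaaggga
Rsad2: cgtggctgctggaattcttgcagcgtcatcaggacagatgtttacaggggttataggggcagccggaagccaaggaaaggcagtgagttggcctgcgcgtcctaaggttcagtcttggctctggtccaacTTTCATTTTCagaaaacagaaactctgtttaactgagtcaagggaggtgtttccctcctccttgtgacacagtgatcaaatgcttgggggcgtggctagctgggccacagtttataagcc
Gbp3 holds 2 matches and Rsad2 1. Of 30 list members with a promoter 15 held an ISRE match, against 3.04% of all promoters, and of the 10 promoters of genes called lower 3 (30.0%) did. Ifit2 has no match in this window, which says only that these letters are not there.

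Most chemokine and cytokine genes had both VSG22 arrays below both Dex arrays, and 3 of them were called lower. Ccl7, which attracts monocytes, had levels of 5.94 and 5.94 with VSG22, 6.85 and 6.81 with Dex, and 8.14 and 8.12 with EtoH. The arrays of each group were nearly equal and the groups were well apart, with VSG22 lowest (1.86-fold lower than Dex; difference -0.89 ± 0.11, SE, n = 2 each; limma adjusted p = 0.0335). It was the only chemokine of 15 that was called; 10 of them had both VSG22 arrays below both Dex arrays and 2 above, where 22.3% and 28.6% of all members did, and the median difference was -0.24. Ccl2, the main monocyte attractant, had 9.38 and 9.30 against 9.61 and 9.69, a difference of -0.31 with a 95% interval of -0.56 to -0.05 that was not called (limma adjusted p = 0.23). Cxcl10, which attracts T cells, differed by -0.32 (limma adjusted p = 0.207), with 5.48 and 5.499 against 5.81 and 5.82.

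Among 17 cytokine genes, 14 (82.4%, against 22.3% of all members) had both VSG22 arrays below both Dex arrays and 1 above, 8 (47.1%, against 7.99%) reached an unadjusted p below 0.05 downward and 0 upward, and the median difference was -0.23; 7 of the 17 have a probe in a Dex patch, and outside the patches 8 of 10 lay below. Those called lower, Il10 and Il1rn, both restrain inflammation. Il10, the anti-inflammatory cytokine, had levels of 1.98 and 1.99 with VSG22, 2.67 and 2.57 with Dex and 2.78 and 2.80 with EtoH, 1.55-fold lower with VSG22 than with Dex (limma adjusted p = 0.0353). Il1rn, the secreted antagonist of the IL-1 receptor, had 4.67 and 4.57 with VSG22, 5.27 and 5.21 with Dex and 6.07 and 6.02 with EtoH, 1.54-fold lower with VSG22 than with Dex (limma adjusted p = 0.034). For Il10 the Dex arrays lay near EtoH, and for Il1rn they lay between.

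The classical LPS cytokines had smaller, uncalled differences. Tnf had levels of 7.05 and 7.12 with VSG22, 7.49 and 7.59 with Dex and 7.55 and 7.66 with EtoH, a difference of -0.46 with a 95% interval of -0.72 to -0.19 (limma adjusted p = 0.127), and its probe lies in a Dex patch. Il6 differed by -0.37 (limma adjusted p = 0.171). Il1b, whose probe is also in a Dex patch, differed by -0.27 (limma adjusted p = 0.277). Both compounds stood far below EtoH for Il33, an alarmin of the IL-1 family, at -0.95 and -1.07 with VSG22, 0.02 and -0.05 with Dex and 3.98 and 4.08 with EtoH. Its difference of -0.997 ± 0.28 missed the threshold (limma adjusted p = 0.16; 95% interval -1.65 to -0.34), although the 4 arrays did not overlap.

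Of the inflammatory enzymes and effectors, 0 of 27 were called, and the median difference was 0.00 at 2 decimals. Both VSG22 arrays lay above both Dex arrays in 7 (25.9%, against 28.6% of all members) and below in 10 (37%, against 22.3%). Nos2, the inducible nitric oxide synthase, had levels of 5.94 and 5.93 with VSG22, 6.25 and 6.19 with Dex and 7.46 and 7.61 with EtoH (difference -0.29, 95% interval -0.50 to -0.08; limma adjusted p = 0.194). Ptgs2, the inducible cyclooxygenase, differed by -0.16 with overlapping arrays, and its probe lies in a Dex patch. Hmox1, heme oxygenase, was the 1 gene of 22 in the oxidative stress and iron list that was called: 6.19 and 6.18 with VSG22, 6.67 and 6.70 with Dex and 8.27 and 8.21 with EtoH, 1.41-fold lower with VSG22 than with Dex (limma adjusted p = 0.0398). Saa3, an acute-phase protein, had among the highest levels, at 10.01 and 9.91 against 9.96 and 9.75, and its arrays overlapped.

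Of the other genes called lower by rule, Tmprss3, a membrane serine protease, had levels of 6.02 and 5.93 with VSG22, 6.76 and 7.11 with Dex and 7.20 and 7.10 with EtoH, 1.94-fold lower with VSG22 than with Dex (limma adjusted p = 0.034). Fabp3, a fatty-acid-binding protein, was 1.64-fold lower at 0.53 and 0.57 against 1.22 and 1.30. Gm13889 and 4932415M13Rik were 1.80-fold and 1.62-fold lower.

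Glucocorticoid receptor target genes lay on both sides of Dex. Of 28 members 14 lay above both Dex arrays and 8 below, or 50% and 28.6%, where 28.6% and 22.3% of all members did; the median difference was 0.10, and Hp was the only 1 called. Fkbp5, the receptor's own co-chaperone and a standard readout of its activity, had levels of 5.44 and 5.19 with VSG22, 4.71 and 4.91 with Dex, and 3.17 and 3.08 with EtoH. All VSG22 values lay above all Dex values, but the difference of 0.51 ± 0.13 was not called (limma adjusted p = 0.147; 95% interval 0.19 to 0.82), and it was 0.73 on slide 1 and 0.28 on slide 2. Tsc22d3, or GILZ, an inhibitor of NF-kB and AP-1, had 4.07 and 3.93 against 4.09 and 4.10, with EtoH at 3.95 and 3.96; the interval of its difference was -0.31 to 0.12. Dusp1, which switches off MAP kinases, had an interval of -0.30 to 0.49. Per1, a clock repressor, had an interval of -0.25 to 0.46. Zfp36, or tristetraprolin, which destabilises cytokine mRNA, had 3.50 and 3.37 with VSG22 against 4.43 and 5.40 with Dex, with the Dex arrays themselves well apart (difference -1.48; limma adjusted p = 0.0998). The receptor gene Nr3c1 itself had levels of 3.33 and 3.25 with VSG22 and 3.35 and 3.25 with Dex, an interval of -0.23 to 0.21. Of 18 genes of the receptor, its chaperones and cofactors 0 were called. Of these 18, 6 lay above (33.3%, against 28.6% of all members) and 2 below (11.1%, against 22.3%). Among 23 target promoters, 1 (4.35%) held the receptor's palindrome GNACANNNTGTNC, against 0.381% of all promoters; many of its sites lie outside promoters.

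**Figure D4:**
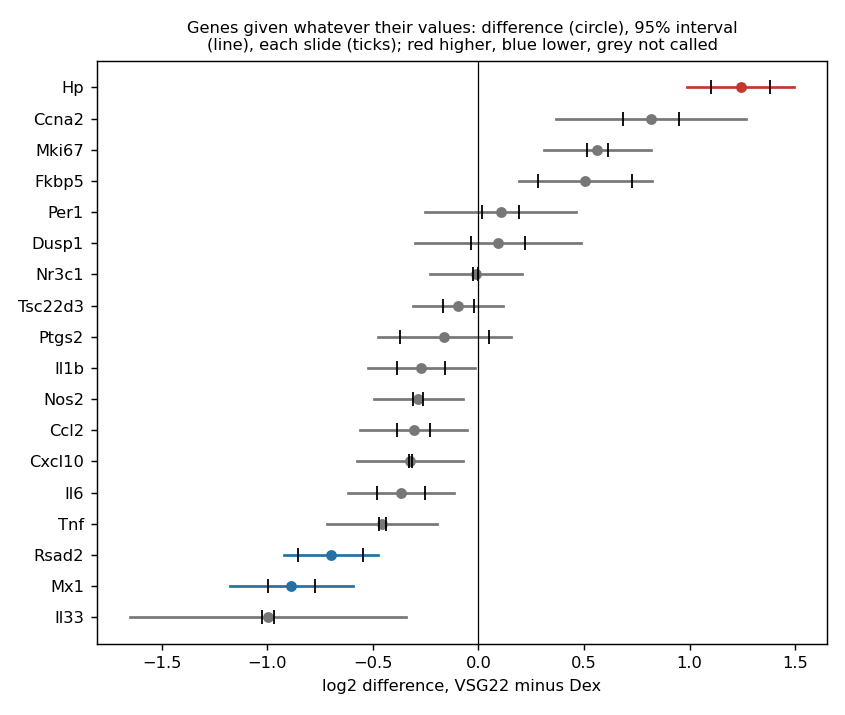
Log2 difference VSG22 minus Dex (circle) with its 95% interval from the fit (line) for the genes given whatever their values; the ticks mark the difference within each slide. Hp lies at 1.24, Nr3c1, Dusp1, Per1 and Tsc22d3 have intervals that include 0, and the inflammatory genes from Ptgs2 to Il33 lie between -0.16 and -0.997.

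Sterol and fatty acid synthesis genes had 0 calls. Of 27 members 18 (66.7%, against 28.6% of all members) lay above both Dex arrays and 2 below, 6 (22.2%, against 8.61%) reached an unadjusted p below 0.05 upward and 2 downward, and the median difference was 0.19. Scd2, a fatty acid desaturase, had 6.87 and 6.83 against 6.00 and 6.81, with Dex replicate 2 nearly level with VSG22 (limma adjusted p = 0.39). NF-kB and Toll-like receptor genes had 6 of 30 above and 6 below, 20% each against 28.6% and 22.3% of all members, and a median of 0.02. Macrophage identity genes had 2 of 22 above and 9 (40.9%) below with a median of -0.11, and lysosome genes had 2 of 24 above and 13 (54.2%) below, also with a median of -0.11, where 28.6% of all members lay above and 22.3% below; 0 of either were called. None of the other lists of biological function had a called gene, and their medians lay between -0.14 for circadian clock genes and 0.05 for STAT feedback genes. Among reference genes, Actb and Gapdh differed by -0.07 and -0.04. Of the 16 genes in the reference list, 2 (12.5%) lay above both Dex arrays and 7 (43.8%) below, with a median of -0.06 and 0 called.

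**Figure D5:**
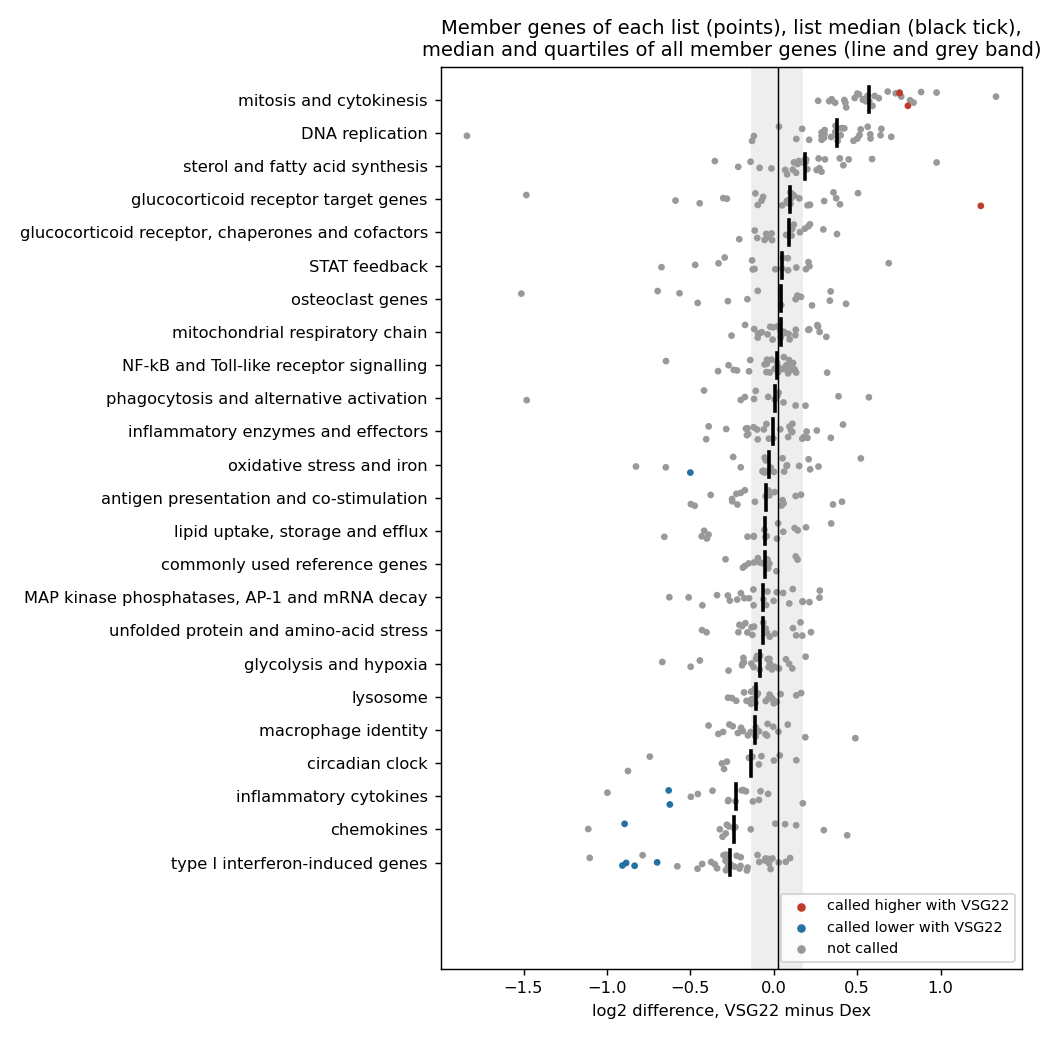
Log2 difference VSG22 minus Dex of every member gene in each list of at least 5 members (points), with the list's median (black tick) and, behind them, the median (line) and quartiles (grey band) of all member genes. The mitosis median lies at 0.57 and that of DNA replication at 0.38, above the band of -0.13 to 0.17. Chemokines (-0.24), inflammatory cytokines (-0.23) and interferon-induced genes (-0.26) lie below it. Sterol and fatty acid synthesis (0.19) lies just above the band and circadian clock (-0.14) just below.

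Genes that the detection rule leaves out held the lowest limma adjusted p-values, down to 0.00703 against 0.0094 among members. Of 1100 tested genes outside the members 44 were called lower with VSG22 and 0 higher. Of the 44, 43 were not well above background on either VSG22 array, and 36 have a probe in a Dex patch. These genes were detected in another group but failed detection with VSG22, so the rule itself largely sets this direction and dimness. Klk5, a skin protease, had levels of -5.94 and -5.38 with VSG22, -0.81 and -1.36 with Dex and -5.56 and -5.08 with EtoH, at least 5.68-fold higher with Dex. Mxra8, a matrix and adhesion protein, was at least 6.02-fold higher with Dex, and Adgrl2, an adhesion receptor, at least 6.13-fold. The probes of these 3 genes lie in the Dex patches, and the part that the stray signal has in these values was not tested. Another 8 of the 44 have a probe outside the patches. One, named after its values were seen, is Mmp13, a collagenase, at -3.94 and -3.92 with VSG22, -2.92 and -2.73 with Dex and -0.83 and -0.66 with EtoH; it was not well above background with VSG22, so it was at least 1.70-fold higher with Dex (limma adjusted p = 0.0188).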

How the data were processed

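RNA from 2 samples a group was hybridised to Agilent single-colour arrays. The deposited values are intensity per spot, and per the file headers they were made with Agilent Feature Extraction 10.7.3.1 on an array design of build mm9: processed signals with spatial and multiplicative detrending on with detection flags, not scaled between arrays. The submitters' processing notes name limma without a step.

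Here the spots flagged non-uniform or outlying were left out, log2 signals of a probe's spots averaged, and each array's 75th percentile over non-control probes subtracted. A probe was well above background where over 0.5 of its spots were; a patch is a spot with at least 3 of its 24 neighbours well above background in that group alone. Names came from the GRCm38.p6 gene table: 26527 probes by accession, 3786 by symbol, 714 by synonym, and 24654 kept the file's name. Positions are mm9 as in the files; exons and untranslated regions were not used here. A gene is its brightest probe detected in both arrays of some group. Limma 3.58.1 (R 4.3.3) fitted all 10 arrays with group as the only term (5 residual, 1.81 prior degrees of freedom), two-sided, Benjamini-Hochberg over the 18049 fitted genes; the script was tested on simulated data. The number of arrays limits the precision. The members and all 30 gene lists were chosen with earlier results of these data known. Named are the 10 highest and 10 lowest called genes with a symbol, measured on all 4 arrays without overlap and outside patches; up to 4 called members, or else the brightest, of each list of at least 5; 18 genes given whatever their values; up to 5 called genes below background with Dex; and 3 called genes outside the members. Of these 61, the text gives the called ones, except 1 that is not reported here, and the others a result turns on. Alternatives covered scaling, background, filters, probes, arrays, weights, patches and adjustment.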

Additional observations from a re-analysis of the deposited data

How the results depend on the processing

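The count of 56 called genes is unstable. It was 156 (64 higher, 92 lower, or 41.0% higher against 62.5%) with array medians subtracted, 101 (58.4% higher) with quantile normalization, 85 (41 higher, 44 lower, or 48.2% higher) with normexp background, 5 with no filter on dim probes, 100 (35 higher, 65 lower) when genes detected with VSG22 or with Dex entered, 16 (16 higher, 0 lower) without probes in patches, 0 with the VSG22 and Dex arrays alone (1941 at an unadjusted p below 0.05), 0 adjusted over the members alone, and 4 with array weights without probes in patches, which was chosen after seeing the data. Leaving out 1 array gave from 2 to 1246 calls: 1246 (298 higher, 948 lower) without Dex replicate 1, 261 without Dex replicate 2, 25 (25 higher, 0 lower, 4 shared with the 56) without VSG22 replicate 2, 45 (45 higher, 0 lower, 4 shared) without VSG22 replicate 1, 2 without either EtoH replicate, 4 without either FF replicate, 7 without VSGC12 replicate 1 and 10 without VSGC12 replicate 2; the gene set was chosen anew each time, and without 1 VSG22 or Dex array the lone array is assumed to vary like the other groups. The count stayed within 1.5 times with the percentile over detected probes (69), detection also required with Dex (48), the mean of a gene's probes (58), array weights (41), every probe (53, chosen after seeing the data) and the replicate block (77: 61 higher, 16 lower, 36 shared). The replicate number follows the slide; deviations by slide had a correlation over genes (not independent replicates) between -0.03, for VSG22 and Dex, and 0.39 among pairs of groups, so the numbers are not read as pairs. Each group also sits at 1 place on both slides, so place and group cannot be told apart.

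None of the 25 called members named by rule reversed, and each stayed called in 5 to 16 of 24 alternatives (Hmox1 fewest, Hp most). Among the division and repair genes named after their values were seen, this ran from 4 (Sgo1) to 11 (Kif18a). Reversals were uncalled and small: Actb had 0.012 (quantile), 0.05 (normexp), -0.194 to 0.056 (1 array left out). Atf4 had 0.041 (quantile). Ctsa had 0.055 (quantile), 0.005 (mean of probes), 0.116 (without probes in patches), 0.116 (array weights without probes in patches). Dusp2 had 0.026 (array median), 0.095 (quantile), 0.045 (detected percentile), -0.102 to 0.101 (1 array left out). Fabp5 had 0.001 (normexp). Gapdh had 0.085 (quantile), 0.01 (detected percentile), -0.079 to 0.007 (1 array left out). Nfil3 had 0.011 (quantile), -0.15 to 0.003 (1 array left out). Nr3c1 had 0.014 (array median), 0.013 (quantile), 0.033 (detected percentile), 0.014 (normexp), 0.14 (mean of probes), -0.061 to 0.036 (1 array left out). Saa3 had -0.004 to 0.212 (1 array left out). Socs3 had -0.08 to 0.098 (1 array left out). Over the alternatives the median difference of the mitosis list ran from 0.53 to 0.66, DNA replication from 0.30 to 0.43, interferon-induced genes from -0.30 to -0.19, cytokines from -0.30 to -0.17 and chemokines from -0.26 to -0.12. The cause of these shifts was not tested.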
